A study of Drosophila melanogaster with 2 samples.

Results

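The genes described here are 10 genes of the actin and myosin machinery that works in dorsal closure of the fly embryo: sqh, zip, chic, jar, cher, ena, tsr, Act5C, Act42A and RhoGEF2. They were taken as a named list by their function, with earlier results of these data known, and all 10 were found among the 13945 protein-coding genes of the Ensembl annotation. Binding of kay, the fly Fos protein, was mapped at them by chromatin immunoprecipitation and sequencing (ChIP-seq). The material was whole *Drosophila melanogaster* embryos of both sexes, 0 to 24 hours old, whose transgenic line makes kay fused at the C-terminus to GFP. An anti-GFP antibody was used, and there was 1 group with 2 biological replicates, numbered 2 and 4. A peak is therefore a place where DNA was enriched with the tagged protein. It does not show that the protein touches the DNA there, and the control is not given in the sources used here. In whole embryos of mixed ages, strong binding in few cells and weaker binding in many cells cannot be told apart.

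The authors' lists in the dm6 build were used: 30000 candidate regions for each replicate and for both pooled, and the 3860 regions that passed their irreproducible discovery rate (IDR) procedure, called IDR regions here. The IDR regions are the 3860 strongest pooled candidates, and their signal, the value given by the authors' peak caller, runs between 93.6 and 2530.6. The signal ranks regions within a list and was not compared between lists. The lists hold no read counts, so the depth is unknown. The pooled candidate list is labelled as peaks and background for the IDR step, so a candidate outside the IDR list need not be bound. A region was counted at a gene when its summit lay in the gene or within 3 kb of it, which gave 20 IDR regions and 98 other candidates at the 10 genes. No condition was contrasted with another, so no test was run, and counts are set beside the same counts over all genes or all IDR regions.

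Dorsal closure is the movement in which the epidermal sheets of both flanks are drawn over the amnioserosa and meet at the dorsal midline. A cable of actin and non-muscle myosin II at the leading edge and pulsed contractions of the amnioserosa drive it, and protrusions of the leading edge cells join the sheets. JNK signalling in the leading edge acts through AP-1, the dimer of kay and Jra, which recognises TGACTCA or, read on the other strand, TGAGTCA. This sequence is called an AP-1 site here.

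An AP-1 site lay in an IDR region at 4 of the 10 genes, against 5.73% of all genes. Longer genes have larger windows, the median length of these 10 is above that of all genes, and this share was not computed for genes of like length. The sites of chic, sqh and jar are shown because they lie in the 3 strongest of the 20 IDR regions. Each run is 29 bases of dm6 on the minus strand, the coding strand of all 3 genes, with the site in capitals.

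chic, upstream site (chr2L:5980423-5980451, 5' UTR): agagccgccgtTGAGTCAtcgtctgctct

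chic, downstream site (chr2L:5980233-5980261, 5' UTR): gagtgaacgggTGACTCAcggcttggaat

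sqh (chrX:6224527-6224555, intron): gtttgcgcgagTGACTCAgagagctgcgc

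jar (chr3R:24259855-24259883, intron): cacaacgcccaTGAGTCAgaaggcagaag

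The downstream chic site lay 20 bp from the summit, the sqh site 65 bp and the jar site 74 bp. The site of chic that is farther upstream was 44 bp past the second of its 3 start sites.

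Of the 10 genes, 8 had an IDR summit in the gene or 3 kb around it, against 37.5% of all protein-coding genes. Act42A and cher had none. The median length of the 10 genes was 13184 bp, against 2166 bp for all genes, although 3 of the 10 are shorter than 3 kb. An IDR summit was found at 51.6% of all genes of 10 to 40 kb but at 31.0% of those under 3 kb. Among the 7552 genes within the range of lengths of the 10 genes, 1780 to 33857 bp, the share was 43.5%. All 8 had at least 2 IDR summits, which held for 13.5% of all genes and for 16.6% of genes in that range of lengths. The second summit of Act5C, sqh and RhoGEF2 lay in an overlapping region, 200 to 208 bp from the first. With overlapping regions counted once, 5 of the 10 genes had at least 2, against 11.4% of all genes. When only regions nearest to the gene's own TSS were counted as well, 3 of the 10 did, chic, tsr and zip, against 3.28% of all genes. The shares of 11.4% and 3.28% were not computed for genes in that range of lengths. The mean was 2 IDR summits per gene, against 0.587 over all genes. Per 100 kb of gene and flank there were 10.4 IDR summits at the 10 genes, against 3.44 over the windows of all genes.

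**Figure D1:**
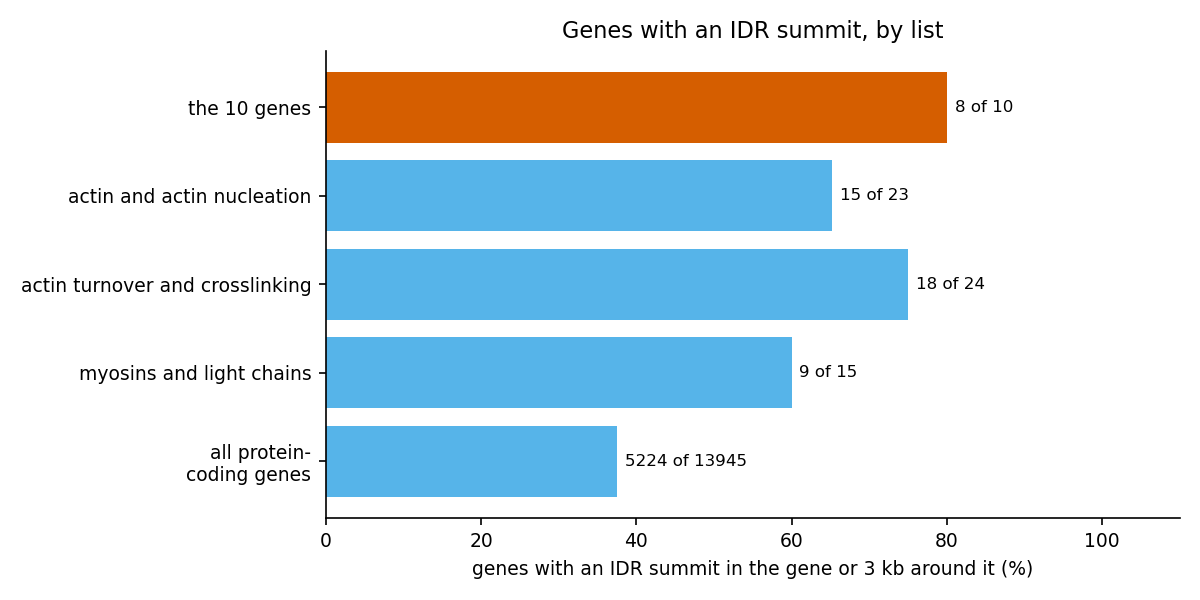
Percent of genes with an IDR summit in the gene or 3 kb around it, for the 10 genes, for 3 lists of other actin and myosin genes, and for all protein-coding genes. The 10 genes stand at 8 of 10, the lists between 60% and 75%, and all genes at 37.5%.

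The best region of each gene spread widely in strength. By signal, sqh led at rank 45, followed by chic at 73, jar at 331, Act5C at 431, tsr at 532, ena at 605, RhoGEF2 at 849 and zip at 2214. When all 5224 genes with an IDR summit are ordered by their best region, sqh stands at place 110, chic at 181 and zip at 3653. The median best rank of the 8 genes was 481.5, against 1428 over all genes with an IDR summit. A gene with more summits has more chances of a strong one, and this comparison was not matched for the number of summits. Over all 20 regions, weaker ones included, the median rank was 1900, against 1930.5 for the whole list, so their middle lay close to that of the list. Of the 20, 3 were among the strongest 386 of the list and 6 among the strongest 772.

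**Figure D2:**
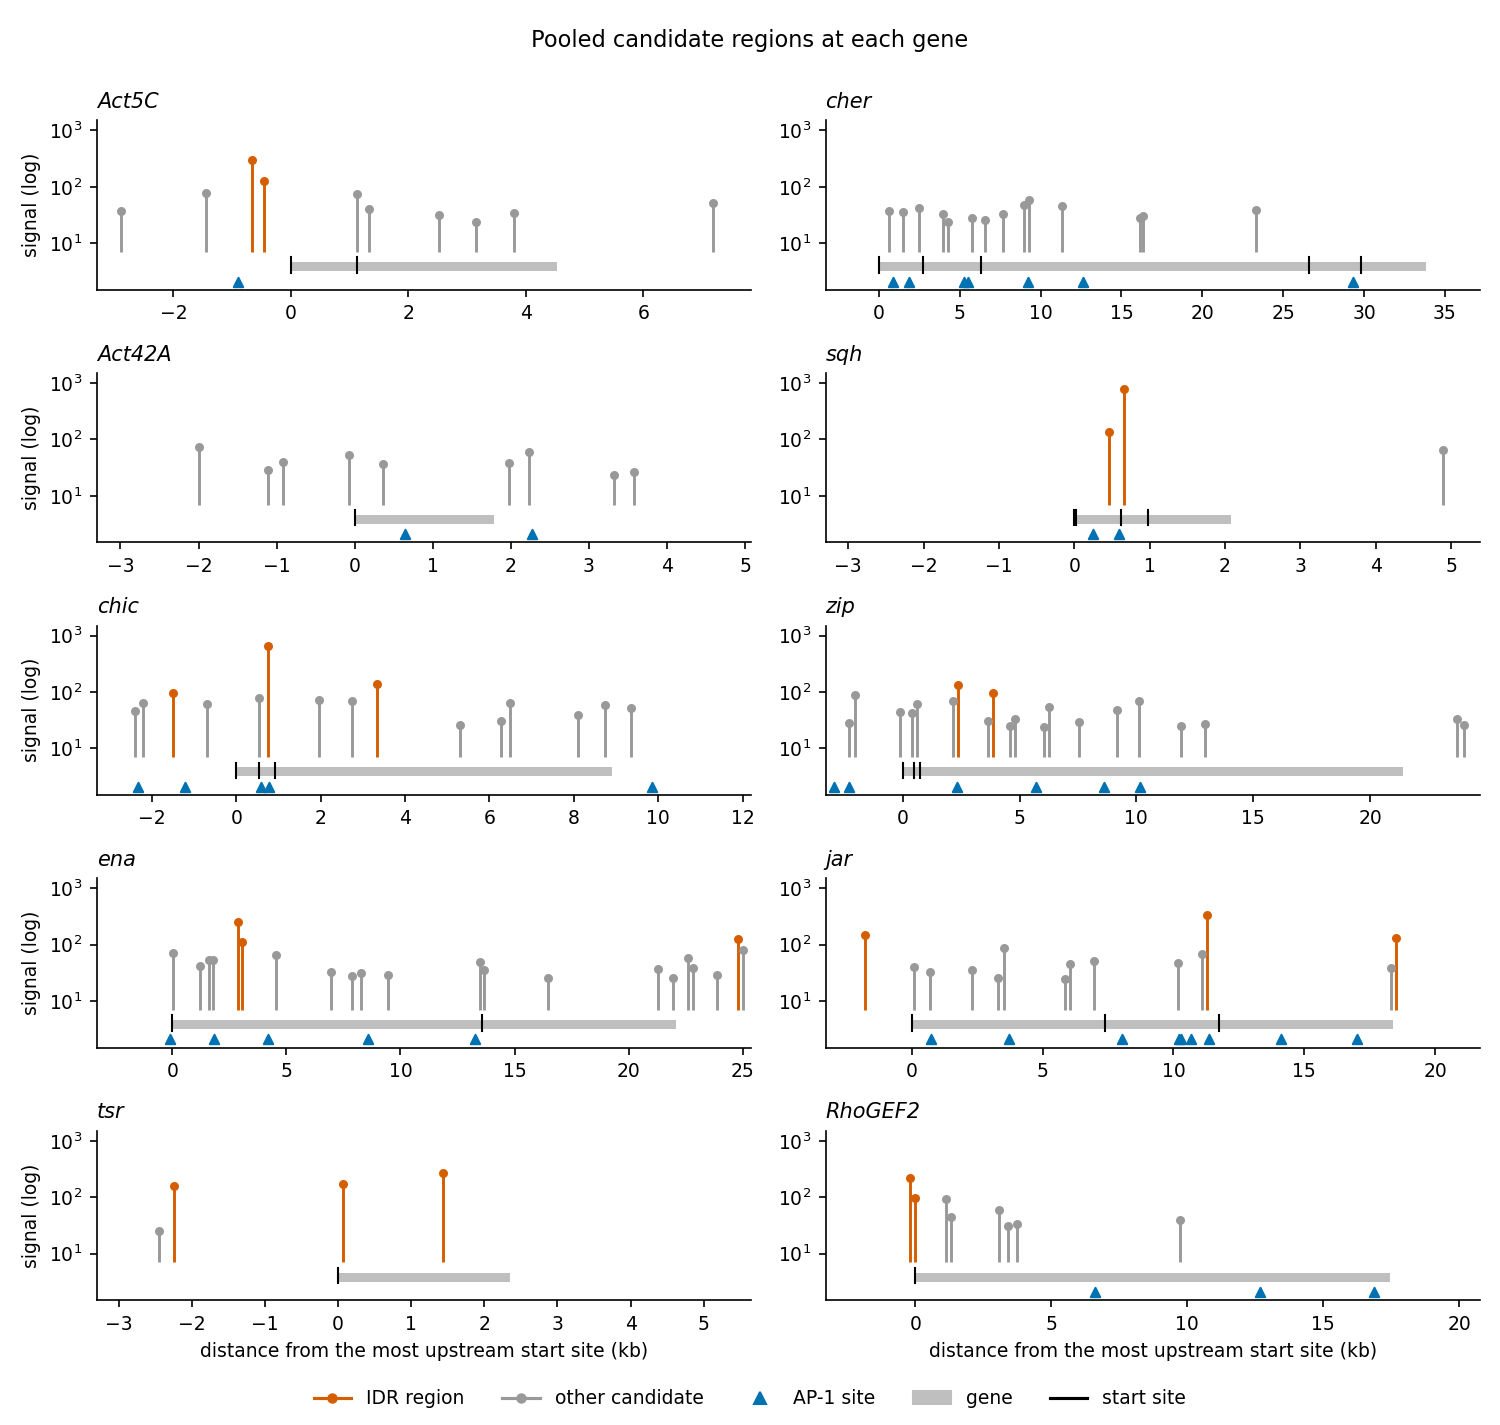
Signal of every pooled candidate (points, log scale) along each gene, by distance of its summit from the most upstream start site in kb, with the gene as a bar, its start sites as black lines and AP-1 sites as triangles. The strongest IDR regions of sqh and chic sit at an internal start site, that of RhoGEF2 at its only one, and those of ena and tsr inside the gene, while cher and Act42A show other candidates only.

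Promoters and introns held nearly all of the 20 summits. Within 500 bp of a protein-coding transcription start site (TSS) lay 12 of 20 (60%, exact binomial 95% interval 36.1 to 80.9%), against 2112 of all 3860 (54.7%). A further 7 of 20 lay in introns (35.0%, interval 15.4 to 59.2%), against 31.4% of the list, and 1 lay between genes. Intervals cover counting error only, and both shares of the list lie inside them. A summit within 500 bp of the gene's own TSS was found at 6 of the 10 genes, against 18.8% of all genes. They were Act5C, chic, tsr, sqh, jar and RhoGEF2, while at zip and ena the regions were intronic. With 250 bp it was 4 genes (all genes 15.3%), and with 1000 bp it was 6 (all genes 21.3%). Of the 6, chic, sqh and jar have 3 or 4 start sites each, and no share was computed for genes with as many. Of the 12 promoter summits, 8 were at a TSS of the gene itself and 4 at a TSS of a neighbour. The promoter regions had a median signal of 151.4 with a range between 95.1 and 777.2, and the other 8 had 134.7 with a range between 97.0 and 293.6. In the whole list these medians were 147.4 and 134.9.

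**Figure D3:**
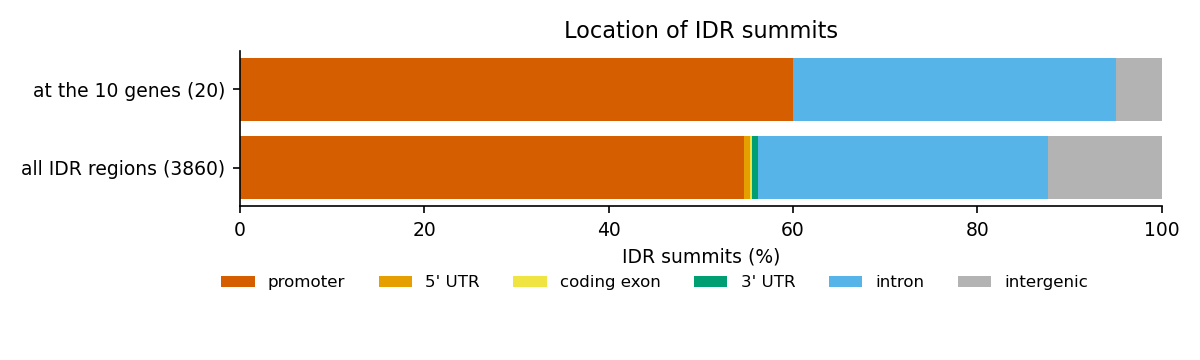
Percent of IDR summits in each location class, for the 20 at the 10 genes and for all 3860. The promoter part is 60% at the 10 genes and 54.7% in the list, and no summit at the 10 genes falls outside promoters, introns and intergenic sequence.

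The myosin genes include the strongest region of the whole set and one of the weaker ones. The gene sqh (FBgn0003514, X 6223061 to 6225140, minus strand) encodes the regulatory light chain of non-muscle myosin II, whose phosphorylation switches the motor on. Its strongest region (X 6224144 to 6224732) had a signal of 777.2 and held rank 45 in all 3 lists, the pooled one and those of both replicates. Its summit lay in a 5' UTR, 44 bp past the third of the 4 start sites. The AP-1 site shown above lay 21 bp before that start site. A second summit in the same interval, 208 bp away and 164 bp before the start site, had a signal of 133.7 and rank 2156. Replicate 2 placed a candidate 5 bp from this second summit at rank 252, whereas in replicate 4 the nearest overlapping candidate was that of the main summit, 207 bp away. The AP-1 site lay between both summits, 143 bp from the second.

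The region of sqh also holds a pair of CArG boxes, the motif of serum response factor. They are shown because this motif is found in 2.31% of all IDR regions and, at the 10 genes, in the sqh interval alone, which the list holds as 2 of the 20 regions. It occurs in 1.31% of all 19607 windows reaching 250 bp before to 50 bp after a TSS. These windows are shorter than the sqh interval of 589 bp and than most of the 20 regions, so the 2 shares are not like for like. The motif was searched on both strands, the capitals mark it, and both runs are on the minus strand of dm6.

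sqh, CArG box 111.5 bp from the main summit (chrX:6224350-6224379, intron): tgtagttcgcCCATTTTAGGcaatggccaa

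sqh, CArG box 250.5 bp from the main summit (chrX:6224712-6224741, 5' UTR): ttttttctggCCTTTTAAGGctttaattga

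The gene jar (FBgn0011225, 3R 24252826 to 24271233, minus strand) encodes myosin VI, the motor that walks to the pointed end of actin filaments. Its strongest region (3R 24259779 to 24260090) had a signal of 331.9 and ranked 331 in the pooled list, 263 in replicate 2 and 395 in replicate 4. The summit was in an intron, 455 bp before the third and most downstream of the start sites of jar, which starts a shorter transcript. The stretch between its AP-1 site, in capitals, and its summit, with 20 bases on either side, is 118 bases of intron on the minus strand of dm6.

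jar (chr3R:24259846-24259963): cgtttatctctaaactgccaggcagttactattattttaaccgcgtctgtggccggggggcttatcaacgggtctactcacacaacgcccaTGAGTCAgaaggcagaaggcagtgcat

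The other 2 IDR regions in the jar window were at neighbours. A summit 2 bp from a TSS of Orct2 (signal 147.0, rank 1786) ranked 5451 in replicate 2 and 834 in replicate 4. A summit 47 bp from a TSS of beta-PheRS (signal 129.6, rank 2271) ranked 2617 in replicate 2 and 1629 in replicate 4. Neither contained an AP-1 site. With 9 AP-1 sites in its window, jar had the most of the 10 genes, and 1 of them lay in an IDR region and 4 in another candidate only.

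The gene zip (FBgn0287873, 2R 24990570 to 25011965, minus strand) encodes the heavy chain of non-muscle myosin II, the partner of sqh. It had no IDR summit within 500 bp of a TSS, and both of its IDR regions lay in introns. The stronger one (2R 25009383 to 25009838, signal 131.4) was 1597 bp past the third start site and ranked 2214 in the pooled list, 2412 in replicate 2 and 2280 in replicate 4. An AP-1 site lay 9 bp from its summit, the nearest to a summit among the 10 genes. The weaker one (2R 25007864 to 25008319, signal 97.0) was 3116 bp past that start site, ranked 3668 in the pooled list, 2807 in replicate 2 and 3633 in replicate 4, and held none. The genes of the regulatory light chain and the heavy chain of the same motor were thus both bound, but the signal of the best region was 777.2 at sqh and 131.4 at zip.

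Among genes of actin assembly and turnover, chic was bound most strongly. It encodes profilin (FBgn0000308, 2L 5972115 to 5981018, minus strand), which loads actin monomers for filament growth. Its main region (2L 5980001 to 5980531) had a signal of 648.9 and ranked 73 in the pooled list, 64 in replicate 2 and 95 in replicate 4. The summit was in the 5' UTR of longer transcripts, 166 bp before the third of the 3 start sites, and the region held both AP-1 sites shown above. An intronic region 2421 bp past the third start site (signal 138.0) ranked 2014 in the pooled list, 2898 in replicate 2 and 1660 in replicate 4. It held no AP-1 site and 4 GAGAGAG matches, counted on both strands with overlaps. The remaining region in the window (signal 95.1, rank 3770) was 85 bp from a TSS of eIF4A, a translation initiation factor gene. Replicate 2 placed it at 14040 and replicate 4 at 1301, which was the widest gap between them among the 20 regions.

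The gene tsr (FBgn0011726, 2R 24044453 to 24046805, minus strand) encodes cofilin, which severs actin filaments. Although only 2353 bp long, it had 3 IDR regions in its window, and its window held a single other candidate. The strongest (2R 24045239 to 24045457, signal 264.7) was in an intron 1429 bp past the only TSS and ranked 532 in the pooled list, 500 in replicate 2 and 612 in replicate 4. The second (signal 171.0) sat at the start site, 68 bp past it, with ranks of 1332 pooled, 1253 in replicate 2 and 1497 in replicate 4. The remaining one (signal 155.7, rank 1622) was 146 bp from a TSS of the neighbouring potassium channel gene sei. The tsr window was the only one of the 10 without any AP-1 site.

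The gene ena (FBgn0000578, 2R 19141632 to 19163705, plus strand) encodes the fly Ena/VASP protein, which keeps filaments growing at their barbed ends in protrusions. Its strongest region (2R 19144271 to 19144726, signal 251.3) was in an intron 2867 bp past the first TSS and ranked 605 in the pooled list, 576 in replicate 2 and 644 in replicate 4. A weaker summit 208 bp farther on overlapped it (signal 112.9, rank 2856) and ranked 3878 in replicate 2 and 4028 in replicate 4. Beyond the end of ena, a region in an intron of CG10737 (signal 124.1, rank 2459) ranked 1512 in replicate 2 and 4658 in replicate 4. None of the 3 held an AP-1 site, although the window held 5.

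The gene Act5C (FBgn0000042, X 5900861 to 5905399, plus strand) is one of a pair of cytoplasmic actin genes, and its IDR summits lay upstream of the gene. The strongest region (X 5900017 to 5900304) had a signal of 293.6 with its summit 653 bp before the first TSS. It ranked 431 in the pooled list, 325 in replicate 2 and 710 in replicate 4. An overlapping summit 200 bp nearer to the gene, 453 bp before the TSS, had a signal of 127.0 and rank 2360, with 3061 in replicate 2 and 1320 in replicate 4. The main region has no AP-1 site. The single AP-1 site in the Act5C window lay outside it, 60 bp before its start and 254 bp from its summit. Of the motifs searched, the region held GAGAGAG once, read here on the other strand as CTCTCTC in capitals. That motif was found in 13.0% of all IDR regions and in 7.61% of the promoter windows. As those windows and the IDR regions differ in length, the 2 shares are not like for like. The 288 bases are intergenic and are given on the plus strand of dm6, as the strongest bound sequence of the set that has no AP-1 site.

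Act5C (chrX:5900017-5900304): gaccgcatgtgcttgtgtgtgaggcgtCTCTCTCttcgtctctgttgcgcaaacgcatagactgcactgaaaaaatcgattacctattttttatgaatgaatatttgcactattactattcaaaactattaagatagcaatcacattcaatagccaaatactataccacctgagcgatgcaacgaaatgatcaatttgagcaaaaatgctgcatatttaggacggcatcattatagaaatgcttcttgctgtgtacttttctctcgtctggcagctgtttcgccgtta

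The other cytoplasmic actin gene, Act42A (FBgn0000043, 2R 6013910 to 6015689, minus strand), had 9 candidates and no IDR region. Its strongest candidate (signal 73.5, rank 5521) was 52 bp from a TSS of the neighbour Pngl. Next came a candidate between genes, 2231 bp past the Act42A TSS (signal 59.1, rank 7628), which held an AP-1 site. The candidate at its own start site, 74 bp before the TSS, had a signal of 53.2 and rank 8969, with 13262 in replicate 2 and 3936 in replicate 4. The last of these values fell just outside the strongest 3860 of that replicate. The coding sequences of both genes have the same length, 1128 bp, and are 86.2% identical. Whether reads from coding sequence of either gene were placed at the other was not tested. Each gene had 1 candidate summit in a coding exon, and no IDR summit of Act5C was in one.

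Filamin, the crosslinker of actin filaments, is encoded by cher (FBgn0014141, 3R 17091533 to 17125389, minus strand), the longest of the 10 genes. It had 14 candidates and no IDR region, while 51.6% of the 1516 genes of 10 to 40 kb had an IDR summit. Its strongest candidate (signal 58.3, rank 7781) was in an intron 2947 bp past a TSS, held an AP-1 site and ranked 8178 in replicate 2 and 4172 in replicate 4. The weakest IDR region of the list has a signal of 93.6, and the strongest candidate outside it 93.5. The 7 AP-1 sites of cher and its flanks were in no IDR region.

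The gene RhoGEF2 (FBgn0023172, 2R 17027190 to 17044653, plus strand) encodes a guanine nucleotide exchange factor that acts upstream of myosin phosphorylation. Its IDR regions lay at its only TSS. The main summit (2R 17026751 to 17027206, signal 215.9) was 211 bp before it and ranked 849 in the pooled list, 640 in replicate 2 and 1402 in replicate 4. The other, 10 bp before the TSS (signal 97.8), ranked 3616 in the pooled list but 8982 in replicate 2 and 6556 in replicate 4, outside the strongest 3860 of both. Neither region had an AP-1 site, and the 3 sites of the window lay 6627 to 16888 bp past the TSS in no listed region.

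**Figure D4:**
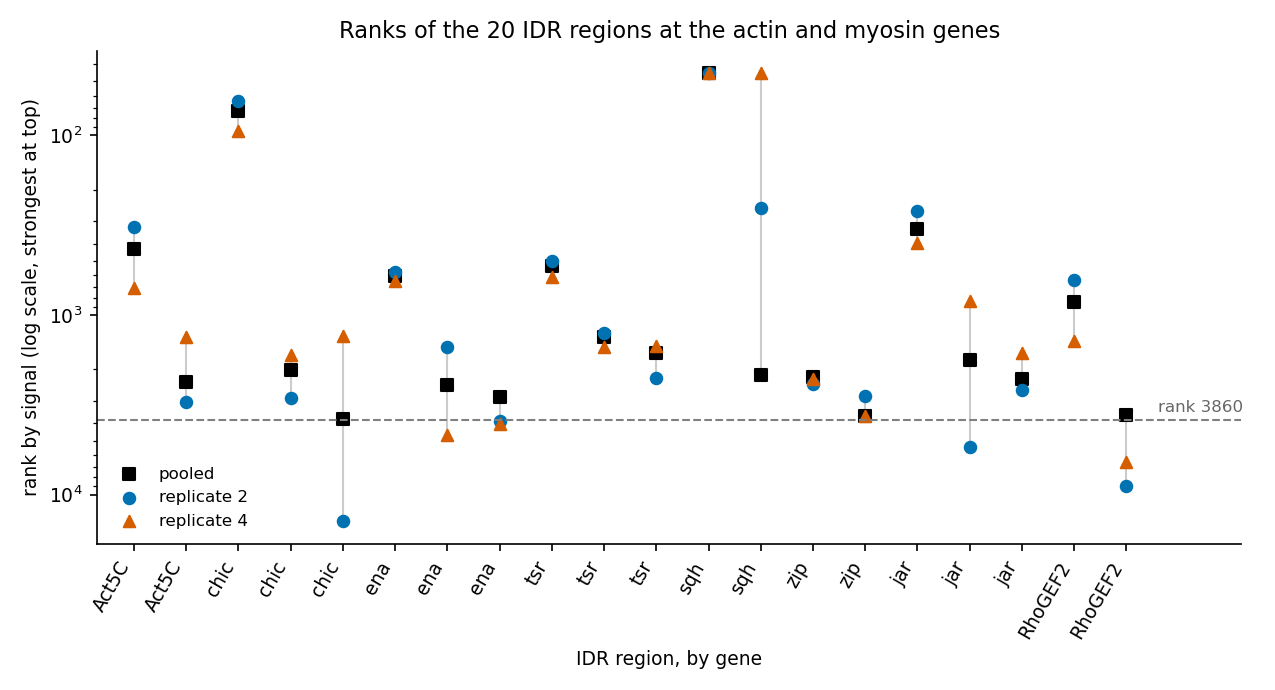
Rank by signal (log scale, strongest at the top) of each of the 20 IDR regions in the pooled list and in the lists of both replicates, grouped by gene, with a dashed line at rank 3860. The sqh main region lies at 45 in all 3 lists, and the widest gap is that of the chic window region at eIF4A, at 14040 in replicate 2 and 1301 in replicate 4.

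The replicates gave similar ranks for most of these regions. Each region was matched to the overlapping candidate of a replicate with the nearest summit. In both replicates that candidate was among the strongest 3860 for 15 of 20 regions (75%), against 72.6% of all IDR regions. The 15 include the second sqh region, whose match in replicate 4 was the candidate of the main summit, 207 bp away. They also include the weaker zip region, whose match in replicate 4 had its summit 108 bp away. The ranks of the replicates differed by a median of 1.5-fold at the 10 genes, and by 1.5-fold over the 3854 IDR regions matched in both. Replicate 2 ranked 10 of the 20 regions higher, against 48.5% of the list. The strongest region of each of the 8 genes stayed among the strongest 3860 in both replicates, with ranks between 45 and 2412. The replicate summits lay a median of 37 bp apart, against 32 bp over the list.

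Next the AP-1 site was counted over regions and over whole windows. Of the 20 IDR regions 5 contained a site (25%, interval 8.66 to 49.1%), against 11.7% of all IDR regions. The list's share lies inside the interval, and as both sqh regions share coordinates and 1 site, the 5 regions hold 4 separate places. Summits with a site at most 50 bp away numbered 2 of 20, at chic and zip, against 5% of the list. By gene, chic, sqh, zip and jar had an IDR region with a site, 4 of 10, while this held for 5.73% of all genes. That 5.73% was not matched for gene length or for the number of AP-1 sites in the windows. All 5 regions with a site were among the 15 nearest to the gene's own TSS, the sqh interval counting as 2 of the 5. None of the 5 regions nearest to a neighbour's TSS had a site. With 11.7% of the list holding a site, 5 regions are too few to show a difference. At promoters 4 of 12 regions had a site, the sqh interval counting as 2 of the 4, and elsewhere 1 of 8. The same shares over all promoter and all other IDR regions were not computed, so no difference between the classes is read from these counts. The looser form TGANTCA was found in 10 of 20 (50%, interval 27.2 to 72.8%), against 20.4% of the list, which lies below the interval. The 10 include both regions of the overlapping pairs at sqh and ena, and by separate regions 8 of 16 held it, against 20.7% of the list. The CRE-like TGACGTCA and the DRE-like TATCGATA were found in none of the 20 (interval 0 to 16.8%), against 1.58% and 7.00% of the list.

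The windows of the 10 genes held more AP-1 sites per length than those of all genes, bound or not. There were 40 sites in 192.9 kb, which is 20.7 per 100 kb, against 8.57 per 100 kb over the windows of all genes. By gene the median was 1.99 sites per 10 kb, with jar at 3.69 and chic at 3.35 the highest and tsr at 0 the lowest. Over all genes the median was 0.606, over genes of the same range of lengths 0.807 and over 62 other actin and myosin genes 1.04, and 11.6% of all genes exceeded 1.99. Base composition, which can set how often a short sequence occurs, was not compared. Most of the sites lay outside strong regions. Of the 40, 5 were inside an IDR region (12.5%, interval 4.19 to 26.8%), 12 were inside another candidate only and 23 were in no listed region. Over all genes 4.78% of 9116 sites were inside an IDR region and 17.5% inside another candidate only.

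**Figure D5:**
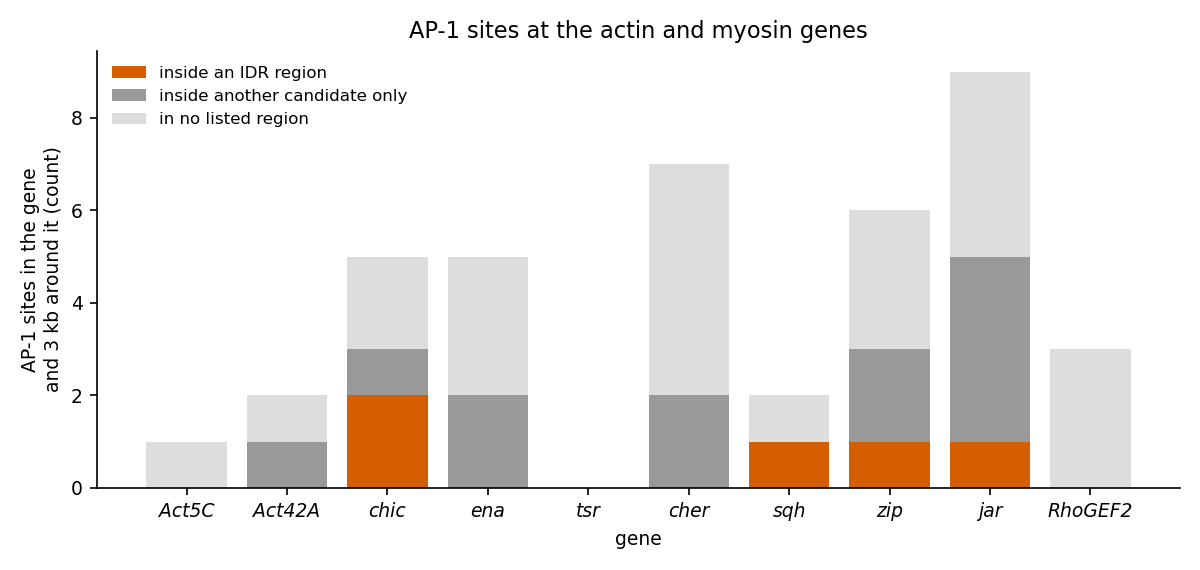
Number of AP-1 sites in each gene and 3 kb around it, split by whether the site lies inside an IDR region, inside another candidate only or in no listed region. Sites inside IDR regions occur at chic (2), sqh (1), zip (1) and jar (1), and the 7 sites of cher and the 5 of ena are outside.

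The same call was then made for other genes of the machinery, in 3 lists chosen by role with 62 genes. An IDR summit lay in the window of 42 of them (67.7%), against 37.5% of all genes. Their median length was 7578 bp, against 2166 bp for all genes, and the share was not computed for genes of like length. With only regions nearest to the gene's own TSS counted, it was 34 of 62 (54.8%), against 18.2% of all genes. Of each list the 2 genes with the strongest regions are named, and 2 with none, picked with their values known. In the list of turnover and crosslinking 18 of 24 were bound, led by the tropomyosin gene Tm1 (rank 210) and alpha-Spec, alpha spectrin (rank 277), whose best summits lay nearest to TSSs of Cp190 and PolD2. There coro, the gene of coronin, and Tm2 had only candidates, at 5952 and 10962.

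Actin and nucleation genes were bound in 15 of 23 cases. Arp3, of the branching complex Arp2/3, led at rank 68, with 57 in replicate 2 and 83 in replicate 4, and was followed by Hem, of the WAVE complex, at 411, nearest to a TSS of IleRS. Act57B, an actin gene, and SCAR, of the WAVE complex, had only candidates, at ranks 16671 and 15669. Named after their values were seen, the actin genes Act79B, Act87E and Act88F had no IDR summit either, with best candidates at 4041 for Act87E and 5247 for Act88F and no pooled candidate in the Act79B window. Of the 15 other myosins and light chains 9 were bound, led by Myo95E (rank 327, nearest to a TSS of p38a) and Mlc-c, the essential light chain of non-muscle myosin (rank 664). The muscle genes Mhc and Mlc1 had candidates only, at ranks 11047 and 14307.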

How the data were processed

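Candidate lists of each replicate and of both pooled, and the list thresholded by IDR, were deposited in dm6 and in dm3; the dm3 lists were not used. The deposited signal of each region is the value of the authors' peak caller, whose name, like the aligner, is not given in the sources used here. The deposited −log10 q value is the same, 3.905, in all IDR regions, so regions were ranked by signal. Scaling between the replicates is not stated, and only ranks were compared between lists. Chromatin was sonicated to 200 to 800 bp, per the labels.

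Genes and TSSs came from Ensembl release 115 (13945 protein-coding genes, 19607 TSSs on 6 chromosome arms), and sequences from the RefSeq copy of the Release 6 assembly. A summit within 500 bp of a TSS was classed as promoter, and other summits by the annotation. Motifs were searched on both strands of each region. Intervals are exact Clopper-Pearson 95% intervals. All 10 genes are named; of each list of other genes, the 2 with the strongest IDR summit and up to 2 with none, which the rule does not single out. Act79B, Act87E and Act88F were named outside it. All 62 listed genes were matched, 1 of them through another name. Results for 2 further lists are not reported here, for a reason unrelated to their values. The members and lists were chosen with earlier results of these data known. Python 3.11.15, numpy 2.4.6, pandas 2.3.3, scipy 1.17.1 and matplotlib 3.10.9 were used, and the code was tested on simulated data.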

Additional observations from a re-analysis of the deposited data

How the results depend on the processing

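Of 46 alternative settings over 7 results, 41 left the result within 1.5 times the count or within the interval of the share. These limits are wide. A promoter share of 40%, with only TSSs of the gene itself counted, lay within them, against 60%. So did 4 genes with a summit within 250 bp of their own TSS, against 6 within 500 bp. The number of IDR regions at the 10 genes was 10 among the strongest 1930 regions of the list and 11 when only the gene body was counted, against 20. Counting TGANTCA in place of the AP-1 site raised the share of regions to 50%, against 25%. Genes with at least 2 IDR summits were 5 of 10 with overlapping regions counted once and 3 with only regions nearest to the own TSS as well, against 8. With only the gene body counted, 28 of the 62 other actin and myosin genes had an IDR summit (45.2%, against 11.1% of all genes), where the 3 kb window gave 42 (67.7%, against 37.5%). With the strongest 3860 candidates of a single replicate in place of the IDR list, 8 genes were bound with either replicate (all genes 37.1 to 38.4%), 6 to 7 at their own promoter (all genes 18.4 to 19.4%), with 21 to 23 regions, an AP-1 share of 21.7 to 33.3% (list 10.9 to 12.7%) and 41 to 43 of the other actin and myosin genes. The promoter share was then 52.2 to 52.4%, below the 54.6 to 55.1% of those lists, while in the IDR list it was 60%, above 54.7%. Counts with overlapping regions taken once at 2 or more summits, and shares within the strongest 1930 and over regions nearest to the gene's own TSS were chosen after seeing the data. No paired analysis was possible because the samples form a single group. With 10 genes, 20 regions and no read counts, only large differences in shares can be seen.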

Other observations

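Of the 20 IDR regions at the 10 genes, 8 overlapped another IDR region (40%), against 14.7% of the list. They form 4 pairs, at Act5C, ena, sqh and RhoGEF2, with summits 200 to 208 bp apart. Over the whole list the 285 neighbouring summits in overlapping regions were a median of 204 bp apart and never nearer than 199 bp.

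Among the 98 candidates at the 10 genes outside the IDR list, 50 lay in introns, 28 at promoters, 8 in 3' UTRs, 7 between genes, 4 in coding exons and 1 in a 5' UTR. Introns thus held 51.0%, against 43.5% of all candidates outside the IDR list, and promoters 28.6%, against 27.1%. For 3' UTRs the shares were 8.16% and 5.1%, and for coding exons 4.08% and 4.59%. An AP-1 site was in 15 of the 98, against 7.25% of all 26140 candidates outside the IDR list. The windows of the 10 genes held 20.7 sites per 100 kb, against 8.57 over the windows of all genes. Overlapping candidates at chic, and likewise at ena, share a site, so the 15 are not separate places. In 2 of the 15, at chic and zip, every site also lay in an IDR region.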
